A study of Rattus norvegicus with 6 samples.

Results

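A set of 10 secreted or secretion-linked defence genes of mucosal surfaces was followed in the lining of the rat oviduct: the secretoglobins Scgb1a1, Scgb3a1 and Scgb2b24, the metal, siderophore and hemoglobin binders Lcn2, Ltf and Hp, the antibody transporter Pigr, and the antimicrobial genes Reg3g, Camp and Lyc2. They were taken by symbol from a proposed list, and all 10 were found, each with 1 probe set carrying only that symbol, among 14506 genes. The list was drawn up with results of these arrays known. In particular, Scgb2b24 and Lyc2 had been chosen by their small p between mated and unmated rats. How far earlier results bore on the choice of the other 8 is not recorded. The differences between the groups are therefore given as a description.

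The endosalpinx, the mucosa that lines the oviduct, was taken from adult Sprague-Dawley females of 240 to 280 g. All were killed at 0130 h of estrus, and 1 array was run for each animal. The 3 unmated rats had been kept alone from pro-estrus, and their uteri were described as swollen with fluid. The 3 mated rats had been placed with fertile males at 2200 h, had sperm or a plug in the vagina 30 min later, stayed with the males, and were sampled 3 h after mating with much semen in the uterus. The comparison asks what the oviduct lining expresses differently 3 h after mating. Company of a male and mating cannot be told apart, since only the mated rats had either. The arrays measured a whole mucosa, in which fewer cells of a type and less RNA per cell cannot be told apart.

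Mucosal defence proteins are made mainly by secretory epithelial cells and released into the lumen. Secretoglobins are small, disulfide-linked secreted proteins of airway and reproductive tract epithelia. Lipocalin 2, lactoferrin and haptoglobin withhold iron from bacteria, the first by binding siderophores, the second by binding iron itself and the third by binding free hemoglobin. The polymeric immunoglobulin receptor carries dimeric IgA across the epithelium and is itself cut and shed as secretory component. Reg3g is a C-type lectin active against Gram-positive bacteria, Camp is the precursor of the rat cathelicidin peptide, and lysozymes cut bacterial cell walls. Lcn2, Ltf and Camp are also stored in neutrophil granules, so their signal in a tissue can come from epithelium or from neutrophils.

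Values are log2 signals, so that a difference of 1 is a 2-fold change. Signals of different probe sets are not compared as amounts. As a guide to background, the 95th percentile of the mean signals of 1240 odorant and pheromone receptor genes was used, a log2 signal of 7.13; a gene at or below it is said to lie within the receptor range. The 6 arrays were alike, with medians from 7.89 to 7.94 and correlations from 0.992 to 0.995. Of epithelial markers, 11 of 11 measured for secretory epithelium and 10 of 11 for ciliated epithelium lay above the receptor range. So did 10308 of 14506 genes, 14 of 16 macrophage markers and 7 of 10 fibroblast markers. These counts alone therefore do not bear out the tissue label.

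Of all 14506 genes, 10308 lay above the receptor range in their mean over all arrays. So did 6 of the 10 members: Lcn2, Pigr, Ltf, Reg3g, Scgb3a1 and Hp. The 4 others, Lyc2, Camp, Scgb1a1 and Scgb2b24, lay within it, so their values are close to what genes of sensory neurons gave in this tissue. Nearest to the limit stood Hp above it, at a mean of 7.28, and Lyc2 below it, at 6.83. No member passed the threshold of an adjusted p of 0.05 by limma over all genes, where 0 of 14506 genes (0%) did. An unadjusted p under 0.05 was found for 663 genes (4.57%; 3.02% with the mated mean higher and 1.55% lower). Among them were 2 of the 10 members, Scgb2b24 (higher) and Lyc2 (lower), which are those named earlier for that reason, so nothing is read from this count. Mean signal was higher in mated rats for 8 of the 10 members, with a median difference of 0.15, against 53.2% of all genes and a median of 0.01. Groups did not overlap for 3 members and for 8.47% of all genes. Of these members Scgb2b24 and Ltf were higher in mated rats, as were 5.24% of all genes, and Lyc2 was lower, as were 3.23%. Scgb2b24 and Lyc2 were chosen for their small p, and the list was drawn up with results known. Nothing is therefore read from the counts of direction and overlap either.

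**Figure D1:**
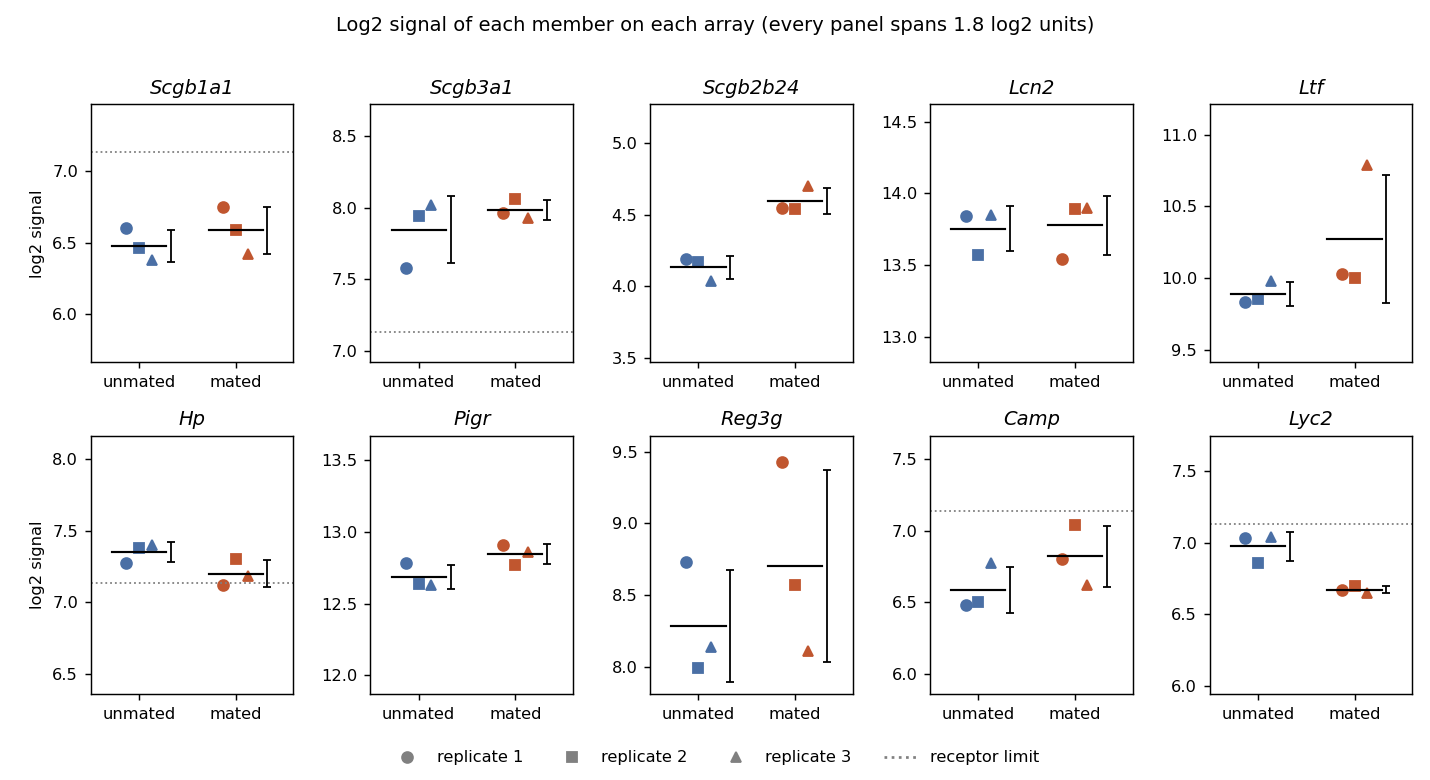
Log2 signal of each of the 10 members (vertical axis, every panel spanning the same number of log2 units) on the 3 unmated (blue) and 3 mated (orange) arrays; symbols mark the replicates, horizontal lines the group means, bars the SD and dotted lines the receptor limit of 7.13. Ltf is set apart by 1 mated array and Reg3g varies over all arrays, while Lcn2 and Pigr are bright with close group means.

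Among the secretoglobins, Scgb3a1 was the only member above the receptor range. It encodes a small secreted protein of airway and glandular epithelium. Its log2 signals were 7.58, 7.94 and 8.02 in unmated and 7.96, 8.06 and 7.93 in mated rats. The groups overlapped, and 1 unmated array was lower than all the others. The means were 7.85 ± 0.23 and 7.98 ± 0.07 (SD, n = 3), a difference of 0.14 with a 95% confidence interval from -0.13 to 0.41. Without unmated replicate 1 the difference was 0.0033.

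Scgb1a1 encodes the club cell secretory protein, or uteroglobin, the best known secretoglobin of the airway and, in the rabbit, of the uterus. Its signals were 6.60, 6.46 and 6.38 in unmated and 6.75, 6.59 and 6.42 in mated rats. All lay within the receptor range and the groups overlapped. The difference was 0.11 (95% confidence interval -0.13 to 0.34), and 0.025 without mated replicate 1. Neither group thus gave a Scgb1a1 signal above the receptor range.

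Scgb2b24 belongs to the androgen-binding protein group of secretoglobins, which has many similar copies in rodents, so that the copy measured is uncertain. Its signals were 4.19, 4.17 and 4.04 in unmated and 4.55, 4.54 and 4.70 in mated rats. Every mated value lay above every unmated one, by a mean of 0.46 (95% confidence interval 0.28 to 0.65), or 1.38-fold. The difference stayed between 0.41 and 0.49 whichever array was left out. All 6 signals lay far below the receptor limit of 7.13, so the whole difference lies among signals of the background range.

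The oviduct did have a bright secretoglobin outside the 10 members. Scgb1c1, chosen after its values were seen, gave 13.92, 13.90 and 13.94 in unmated and 13.88, 13.95 and 13.91 in mated rats. It was the only one of 8 other measured secretoglobins above the receptor range. Its difference was -0.01 (95% confidence interval -0.15 to 0.14). Of the 8, 6 were higher and 2 lower in mated rats, or 4 and 4 without unmated or mated replicate 2, 0 reached an unadjusted p under 0.05 (4.57% of all genes did), and the median was 0.05; after a second quantile normalization 5 were higher and 3 lower. Scgb2a1 had the smallest p, with an unmated mean of 6.07 ± 0.14 and a mated mean of 5.91 ± 0.09 (SD, n = 3), within the receptor range.

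Of the iron-withholding proteins, Lcn2 was bright in every rat. Its log2 signals were 13.84, 13.57 and 13.85 in unmated and 13.54, 13.89 and 13.90 in mated rats. In each group 1 array lay below the other 2, and the groups overlapped. The means were 13.75 ± 0.16 and 13.78 ± 0.21 (SD, n = 3). Its SD over the 6 arrays, 0.16, was larger than that of 79.2% of all genes. The difference was 0.02 (95% confidence interval -0.26 to 0.31), which bounds the ratio of mated to unmated between 0.836 and 1.24. Its sign had no stability: the difference was -0.068 when unmated replicate 2 was left out, -0.033 and -0.038 when mated replicates 2 and 3 were left out in turn, and 0.14 when mated replicate 1 was.

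Ltf, the lactoferrin gene, which is known to respond to estrogen in the rodent reproductive tract, gave 9.83, 9.85 and 9.98 in unmated and 10.03, 10.00 and 10.79 in mated rats. All mated values lay above all unmated ones, but 2 of them lay close to the highest unmated array and the third stood alone. The means were 9.89 ± 0.08 and 10.27 ± 0.45 (SD, n = 3). The difference of 0.39 had a 95% confidence interval from -0.07 to 0.84, and the adjusted p was 0.984 by limma over all genes. Without mated replicate 3 it was 0.13. Its SD over the 6 arrays, 0.36, was larger than that of 98.4% of all genes, whose median was 0.11.

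Hp, the haptoglobin gene, was the only member above the receptor range that was lower in mated rats. Its signals were 7.27, 7.38 and 7.40 in unmated and 7.12, 7.30 and 7.18 in mated rats. Only 1 mated value reached into the unmated range. The means were 7.35 ± 0.07 and 7.20 ± 0.09 (SD, n = 3), and the difference was -0.15 (95% confidence interval -0.33 to 0.03). The adjusted p was 0.984 by limma over all genes.

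Pigr was bright, and its SD over the 6 arrays, 0.11, was close to the median SD of all genes. Its log2 signals were 12.78, 12.64 and 12.63 in unmated and 12.91, 12.77 and 12.86 in mated rats. The mated value was the higher in 8 of the 9 pairs that can be formed from 1 mated and 1 unmated rat. The means were 12.68 ± 0.08 and 12.85 ± 0.07 (SD, n = 3), and the difference was 0.16 (95% confidence interval -0.01 to 0.34), or 1.12-fold. It lay between 0.13 and 0.21 whichever array was left out, and the adjusted p was 0.984 by limma over all genes.

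The genes of a list written as partners of Pigr in IgA transport, which also held the IgG receptor Fcgrt, did not share a direction. Of 11 measured genes, 5 were higher and 6 lower, 0 at an unadjusted p under 0.05, with a median of -0.0067; without mated replicate 2, 7 were higher and 4 lower, and without unmated replicate 1, 6 and 5. Rab11a, a small GTPase of recycling endosomes, had the smallest p, with an unmated mean of 10.71 ± 0.08 and a mated mean of 10.83 ± 0.05 (SD, n = 3). Jchain, which joins IgA monomers and is made by plasma cells, was chosen after its values were seen. It gave 6.88, 7.58 and 7.03 in unmated and 7.07, 6.99 and 6.44 in mated rats, and its mean over all arrays lay within the receptor range. Immunoglobulin heavy chain genes are not analysed here.

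Reg3g had the widest spread of all members. Its log2 signals were 8.73, 7.99 and 8.14 in unmated and 9.43, 8.57 and 8.11 in mated rats, and the groups overlapped. Mated replicate 1 stood highest and unmated replicate 1 next. The range over the 6 arrays was 1.44, and its SD of 0.54 was larger than that of 99.7% of all genes. The difference of 0.42 had a 95% confidence interval from -0.33 to 1.16. It was 0.053 without mated replicate 1, 0.71 without mated replicate 3 and 0.64 without unmated replicate 1.

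Of the other Reg lectins, all 4 measured genes, Reg1a, Reg3a, Reg3b and Reg4, lay within the receptor range, and 1 was higher and 3 lower in mated rats under every scaling tried; without mated replicate 1 the split was 2 and 2. Reg4, with the smallest p, differed by 0.22 (95% confidence interval 0.05 to 0.39). Reg3b, chosen after its values were seen as the closest relative by name, had an unmated mean of 6.68 ± 0.12 and a mated mean of 6.45 ± 0.21 (SD, n = 3).

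Camp lay within the receptor range. Its signals were 6.48, 6.50 and 6.77 in unmated and 6.80, 7.04 and 6.62 in mated rats. The groups overlapped through 1 mated array. The difference was 0.24 (95% confidence interval -0.05 to 0.52), and 0.13 without mated replicate 2.

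Lyc2, a lysozyme gene, gave 7.03, 6.86 and 7.04 in unmated and 6.67, 6.70 and 6.65 in mated rats. Every mated value lay below every unmated one, and the mated values lay close together. The difference was -0.30 (95% confidence interval -0.48 to -0.13) and lay between -0.36 and -0.27 whichever array was left out. All 6 values lay within the receptor range. Its neighbour in the RefSeq gene table is the lysozyme gene Lyz2, with no other gene starting between them. Lyz2, the smallest p of the other lysozymes, was bright, at 10.48, 10.13 and 9.99 in unmated and 9.90, 9.75 and 10.13 in mated rats. Its difference of -0.27 (95% confidence interval -0.60 to 0.06) had the same sign, but the groups overlapped. Related copies can share signal on an array. Of the 7 other lysozyme and lactalbumin genes measured, 2 were higher and 5 lower, with 0 at an unadjusted p under 0.05; without mated replicate 1, 5 were higher and 2 lower, and without unmated replicate 3, 4 and 3.

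**Figure D2:**
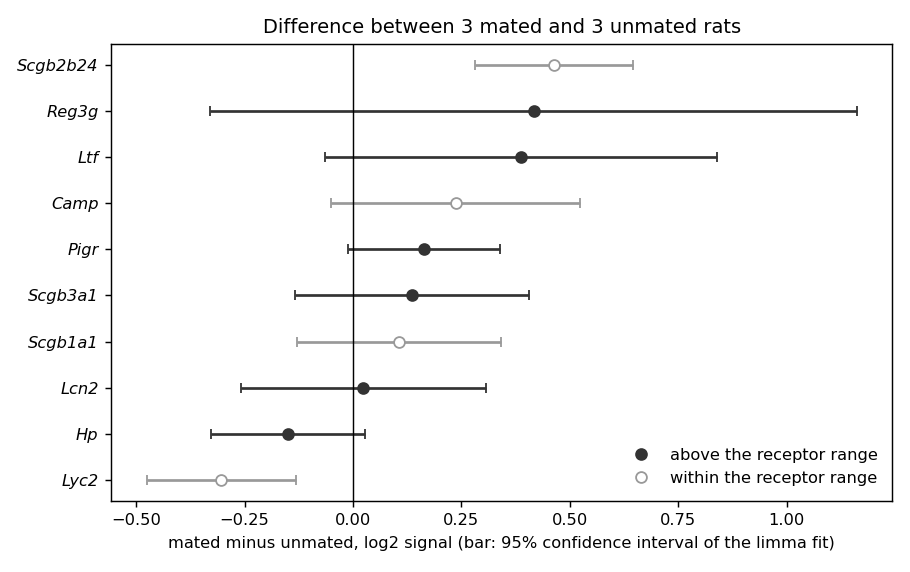
Difference of mean log2 signal, mated minus unmated (horizontal axis), for each member; bars are 95% confidence intervals of the limma fit on 3 rats per group, filled points lie above and open points within the receptor range. Scgb2b24 and Lyc2, both open, lie farthest from 0 relative to their bars, which is how they were chosen and is no test; the intervals of the 6 filled points include 0.

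The 4 members on which the description turns are Lcn2 and Pigr, bright with close group means, and Ltf and Reg3g. Ltf had 1 mated array far above the rest, and Reg3g varied over all arrays. The 250 bases before the transcript start of each are shown, so that the sequence there can be read beside these values. They come from RefSeq, build GRCr8, and are written in the direction of transcription. The windows are chr3:36081781-36082030 on the minus strand for Lcn2, chr13:44850932-44851181 on the plus strand for Pigr, chr8:119878094-119878343 on the plus strand for Ltf and chr4:112484739-112484988 on the minus strand for Reg3g. Other transcript models of Lcn2 and Pigr start further upstream. Capitals mark matches to 1 of 6 short motifs.
Lcn2: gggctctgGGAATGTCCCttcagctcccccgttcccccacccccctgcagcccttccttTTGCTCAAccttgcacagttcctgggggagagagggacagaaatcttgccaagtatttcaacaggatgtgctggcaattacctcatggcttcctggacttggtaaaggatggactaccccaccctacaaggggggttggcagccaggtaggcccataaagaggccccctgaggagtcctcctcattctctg
Pigr: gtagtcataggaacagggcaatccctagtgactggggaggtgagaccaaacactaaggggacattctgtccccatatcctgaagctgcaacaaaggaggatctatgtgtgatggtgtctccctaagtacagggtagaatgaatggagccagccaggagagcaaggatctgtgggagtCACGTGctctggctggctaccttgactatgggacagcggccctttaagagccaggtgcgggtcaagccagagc
Ltf: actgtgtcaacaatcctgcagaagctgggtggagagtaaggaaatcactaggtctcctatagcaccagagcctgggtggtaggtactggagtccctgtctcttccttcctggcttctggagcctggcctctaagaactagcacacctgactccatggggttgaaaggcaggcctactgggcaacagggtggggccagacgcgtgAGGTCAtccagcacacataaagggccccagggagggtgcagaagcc
Reg3g: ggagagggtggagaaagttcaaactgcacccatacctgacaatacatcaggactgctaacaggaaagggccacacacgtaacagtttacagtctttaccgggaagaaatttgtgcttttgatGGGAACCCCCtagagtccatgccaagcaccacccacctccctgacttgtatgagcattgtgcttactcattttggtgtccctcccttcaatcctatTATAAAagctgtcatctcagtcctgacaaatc

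The motifs were searched on both strands in windows of 300 bases, from 250 before to 50 after the start, for the 9 members that the promoter table holds and for all 33469 windows in it. The NF-kB consensus, bound by the inflammatory factor of that name, was matched in Lcn2, Reg3g and Camp, and in 7.51% of all windows. The C/EBP core, TTGCNNAA, was matched in Lcn2, Scgb1a1 and Scgb2b24 and in 10.6% of all. The E-box CACGTG was matched in Pigr alone of the 9 and in 6.42% of all. AGGTCA, the half-site of the estrogen receptor and other nuclear receptors, was matched in Ltf and Scgb2b24 and in 16.2% of all. The TATA box, TATAAA, was matched in Reg3g, Scgb1a1 and Scgb2b24 and in 14.2% of all, and the STAT core, TTCNNNGAA, in 0 of the 9 and in 8.87% of all. In Lcn2 the NF-kB match spans positions -242 to -233 relative to the start and the C/EBP match -191 to -184. In Reg3g the NF-kB match spans -128 to -119 and the TATA box -32 to -27. The E-box of Pigr spans -73 to -68 and the half-site of Ltf -46 to -41. None of these motifs overlap in the 4 sequences. A match is a description of letters and not evidence that a factor binds.

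The genes that act with the members were taken from lists written for this tissue. Of 16 measured receptors and processing enzymes, 10 were higher and 5 lower in mated rats, with a median of 0.07. Of these, 2, both higher, had an unadjusted p under 0.05 (4.57% of all genes did), Hmox1 and Elane. Without mated replicate 3 the split was 15 and 1 with a median of 0.11, without unmated replicate 1 it was 13 and 3, and without mated replicate 2 the median was 0.026. Hmox1, the inducible heme oxygenase that breaks down the heme taken up with haptoglobin, had the smallest p. Its signals were 6.92, 6.74 and 6.92 in unmated and 7.22, 7.11 and 7.48 in mated rats. The mated mean of 7.27 lay above the receptor limit of 7.13. The unmated mean of 6.86 and the mean over all arrays, 7.065, lay within the receptor range. Cd163, the macrophage receptor of haptoglobin bound to hemoglobin, lay within it too, at 6.50 ± 0.12 and 6.61 ± 0.06 (SD, n = 3). Lrp2, or megalin, which takes up lipocalin 2 among many ligands, was bright, at 12.55 ± 0.19 and 12.52 ± 0.20. Extl3, described as a receptor of Reg proteins, was at 9.90 ± 0.20 and 9.90 ± 0.06. The last 3 genes were chosen after their values were seen.

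Related carriers and antimicrobials outside the members were mixed too. A list of 18 genes written as other lipocalins held 1 gene that is not of that family, Pip, the prolactin-induced protein of secretory glands. Pip had its smallest p, and was the only one under 0.05 before adjustment, with 5.72, 4.91 and 5.67 in unmated and 5.96, 6.02 and 6.06 in mated rats, all within the receptor range. Of the 17 lipocalins 9 were higher and 8 lower, 0 with an unadjusted p under 0.05, and the median was 0.0067. With Pip the split was 10 and 8, turning to 8 and 10 after quantile normalization was repeated or without unmated replicate 1, and to 13 and 5 without mated replicate 1. Of 27 other mucosal antimicrobials and collectins, 18 were higher and 8 lower, or 15 and 11 after median centring, and 3, all higher, had an unadjusted p under 0.05 (4.57% of all genes did, 3.02% higher). The median was 0.03, and 0.015 without mated replicate 2 against 0.09 without mated replicate 3. The 3 genes were Cxcl17, a mucosal chemokine that led the list, Adm, which encodes the antimicrobial and vasoactive peptide adrenomedullin, and S100a8. Cxcl17 gave 10.64, 10.78 and 10.6 in unmated and 11.04, 10.94 and 10.88 in mated rats. Adm, chosen like S100a8 as one of these 3, gave 8.21, 7.76 and 8.16 in unmated and 9.07, 8.29 and 8.35 in mated rats. All 3 were highest on mated replicate 1, as was Reg3g. Since they were named for a small p and all were higher in mated rats, nothing is read from this. In the same list Lgals9 and Chi3l1 were also highest on that array, while Dmbt1, Hamp and Tff3 were lowest there, as were Reg1a, Reg3a and Reg3b. These genes were chosen after their values were seen. S100a8 lay within the receptor range.

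Several other defence and metal-binding genes lay far above the receptor range with similar means in both groups. Lbp, which binds bacterial lipopolysaccharide, had an unmated mean of 13.37 ± 0.10 and a mated mean of 13.39 ± 0.16 (SD, n = 3). Cp, the copper oxidase ceruloplasmin, was at 12.75 ± 0.05 and 12.83 ± 0.17, and Meltf, a relative of lactoferrin, at 12.36 ± 0.17 and 12.38 ± 0.03. These 3 were chosen after their values were seen. Among 10 BPI fold proteins 7 were higher and 2 lower, or 6 and 4 without mated replicate 2, with Bpifb6 at the smallest p. Among 6 transferrins and other carriers of metal or heme 5 were higher and 0 lower, or 5 and 1 after median centring and 4 and 2 without unmated or mated replicate 2, led by the heme binder Hpx. Among 8 peroxidases and oxidases 5 were higher and 3 lower, turning to 3 and 5 under either other scaling and without unmated replicate 1 or mated replicate 2, led by Duox1. None of these 3 lists held a gene with an unadjusted p under 0.05.

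Upstream, the epithelial and cytokine regulators of these genes were split. Of 40 measured genes 22 were higher and 17 lower, or 20 and 20 after median centring or without unmated replicate 3, with a median of 0.02. Of these, 2, both higher, had an unadjusted p under 0.05 (4.57% of all genes did, 3.02% higher). Il22ra2, a soluble decoy for interleukin 22, had an unmated mean of 6.75 ± 0.06 and a mated mean of 6.97 ± 0.07 (SD, n = 3), within the receptor range. The other was Creb3l1, a transcription factor of secretory cells. Creb3l1 was picked with its values known. It gave 10.54, 9.91 and 10.02 in unmated and 10.54, 10.43 and 10.67 in mated rats, and its groups overlapped.

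Since Lcn2, Ltf and Camp are also neutrophil products, neutrophil markers are given beside them. Of 17 measured markers 12 lay within the receptor range, among them S100a8, S100a9, Mpo, Elane, Ngp and Mmp8. Their mean level per array ran from 6.77 to 6.94 in unmated and from 6.89 to 6.95 in mated rats. As deposited 12 were higher and 5 lower in mated rats; this was 9 and 8 after a second quantile normalization and 10 and 6 after median centring. An unadjusted p under 0.05 was found for 4 of the 17, all higher (3.02% of all genes): Elane, Ceacam1, S100a8 and Fcnb. Elane was also counted among the processing enzymes and S100a8 among the antimicrobials, so these counts are not separate. Leaving out 1 array at a time gave 10 to 14 higher, the most without unmated replicate 3. Elane, neutrophil elastase, had the smallest p, with 6.82, 6.89 and 6.93 in unmated and 7.08, 7.15 and 7.08 in mated rats, near the receptor limit. Ceacam1, also expressed by epithelia, was the brightest of the list, at 9.26 ± 0.69 and 9.97 ± 0.25 (SD, n = 3). On mated replicate 3, where Ltf was highest, 3 of the 17 markers were at their highest, Fcnb, Csf3r and Cxcr1, and 2 at their lowest, S100a9 and Chi3l1; on the other 5 arrays between 0 and 4 were at their highest. The part of neutrophils in the signals of Lcn2, Ltf and Camp was not tested.

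Macrophages carry lysozyme, and 14 of 16 macrophage markers lay above the receptor range. Of these 16, 5 were higher and 10 lower in mated rats, or 7 and 9 without unmated replicate 1, unmated replicate 3 or mated replicate 3, with 0 at an unadjusted p under 0.05, and their mean level per array ran from 8.14 to 8.29 in unmated and from 8.14 to 8.18 in mated rats. The list includes Lyz2, which had its smallest p. Cd14 was its brightest gene, at 12.27 ± 0.03 and 12.11 ± 0.52 (SD, n = 3). The part of these cells in the signals of Lyc2 and Lyz2 was not tested.

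Secretory epithelium markers were higher in mated rats for 10 of 11 genes, or 9 under either other scaling, against 53.2% of all genes. Their median was 0.06, with 0 at an unadjusted p under 0.05. The lower gene was Pax8, at -0.07. The list holds keratins, claudins and Epcam, and whether these mark secretory cells alone was not tested. Without mated replicate 3 the split was 7 and 4 with a median of 0.0067, and without unmated replicate 2 it was 8 and 3 with a median of 0.0083; without the other arrays in turn the median lay between 0.087 and 0.11. Muc1, a membrane mucin, had the smallest p and the keratin Krt8 the highest mean, at 12.92 ± 0.09 and 13.02 ± 0.10 (SD, n = 3). Ciliated markers were lower for 10 of 11, with a median of -0.10. Without unmated replicate 2, mated replicate 2 or mated replicate 3 they were lower for 7 and higher for 4, with medians of -0.063, -0.035 and -0.03, and without mated replicate 1 the median was -0.18. The exception, Spag6, had the smallest p (unadjusted, under 0.05), and Tppp3 was the brightest. The mean level per array of the secretory list ran from 10.88 to 10.98 in unmated and from 10.91 to 11.09 in mated rats. Its part in the differences of Pigr, Ltf and the other members was not tested.

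Germ cell, lymphocyte, gland, fibroblast and blood markers cover other cells that the samples could hold. Of 13 measured genes of male germ cells and seminal fluid 10 lay within the receptor range; Tnp1, a transition protein of spermatids, had the smallest p, with a difference of -0.18, and Prm3 was the brightest. In all 8 were higher and 5 lower, or 11 and 2 without mated replicate 1. The mean level per array of this list ran from 6.40 to 6.44 in unmated and from 6.34 to 6.54 in mated rats. Lymphocyte lists lay mostly within the range, with 5 of 8 B and plasma cell genes and 9 of 12 T and NK cell genes there. Of these lists 6 and 5 genes were higher and 2 and 7 lower in mated rats; for the first list this was 4 and 4 without mated replicate 2. Their smallest p values belonged to Irf4 and Nkg7, and their highest means to Derl3 and Gzmb. Of 4 uterine gland genes 2 lay within the range, and all 4 were higher in mated rats, or 3 under either other scaling, with Calb1 at the smallest p and Foxa2 the brightest. Fibroblast markers, in contrast, lay above the range for 7 of 10, and 9 of the 10 were lower in mated rats, or 7 after a second quantile normalization, with a median of -0.087. Without unmated replicate 1 or mated replicate 1 the split was 4 higher and 6 lower with a median of -0.042, and without unmated replicate 3 all 10 were lower with a median of -0.15. Dpt had the smallest p and Col1a1 was the brightest. Of 10 blood and liver genes 7 lay within the range, and 7 were higher and 3 lower, or 5 and 5 after a second quantile normalization or without unmated replicate 2, mated replicate 2 or mated replicate 3, with Apoa1 at the smallest p and Hbb the brightest.

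**Figure D3:**
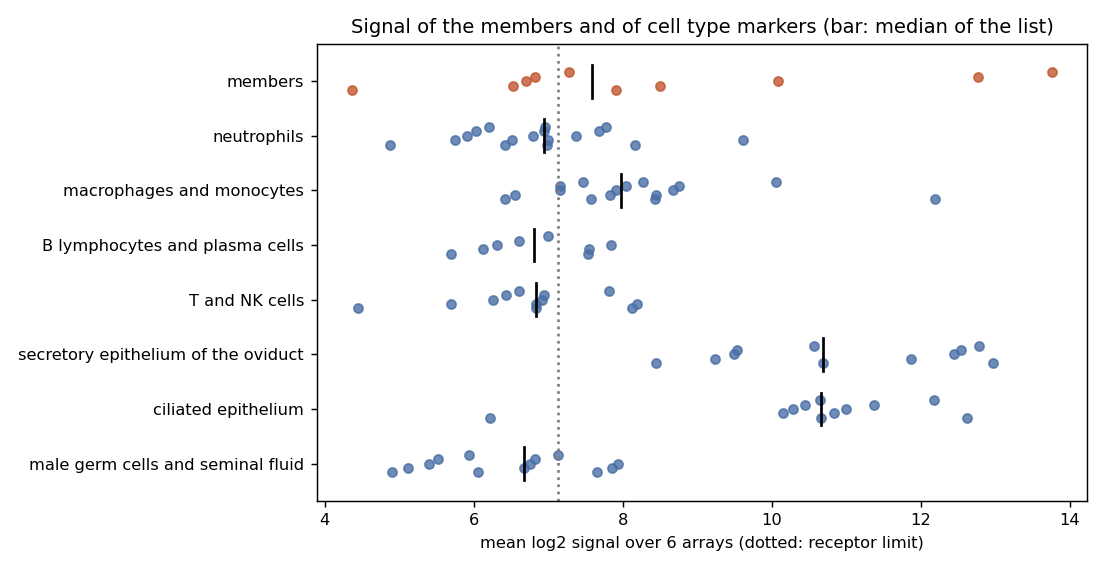
Mean log2 signal over the 6 arrays (horizontal axis) of the 10 members (orange) and of 7 lists of cell type markers (blue), 1 point per gene; bars are list medians and the dotted line is the receptor limit of 7.13. Most neutrophil and male germ cell markers sit left of the line and all secretory epithelium markers right of it; 6 members sit right of it.

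Finally, the genes whose values followed a member most closely over the 6 arrays were sought for the 3 members above the receptor range with the largest SD, by Pearson correlation with 10300 genes above the range. With 6 points, high coefficients are common: 133 genes passed 0.9 with Reg3g, 83 with Ltf and 42 with Scgb3a1. Closest to Reg3g were Mospd2 (r = 0.993), Cln3 (r = 0.992) and Zc3h3 (r = 0.986). They too were highest on mated replicate 1, but their ranges were 0.37, 0.36 and 0.30 against 1.44 for Reg3g. Closest to Ltf were Jup, a junctional plakoglobin (r = 0.997), Eno2 (r = 0.983) and Stbd1 (r = 0.978), all highest on mated replicate 3, with ranges of 0.17, 0.44 and 0.35 against 0.96. Closest to Scgb3a1 were Rnf181 (r = 0.989), Wdr72 (r = 0.988) and Barhl1 (r = 0.988), all lowest on unmated replicate 1. The highest Reg3g, the highest Ltf and the lowest Scgb3a1 value were therefore from 3 different animals. Over the 10 members no array was highest for more than 3 or lowest for more than 3.

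**Figure D4:**
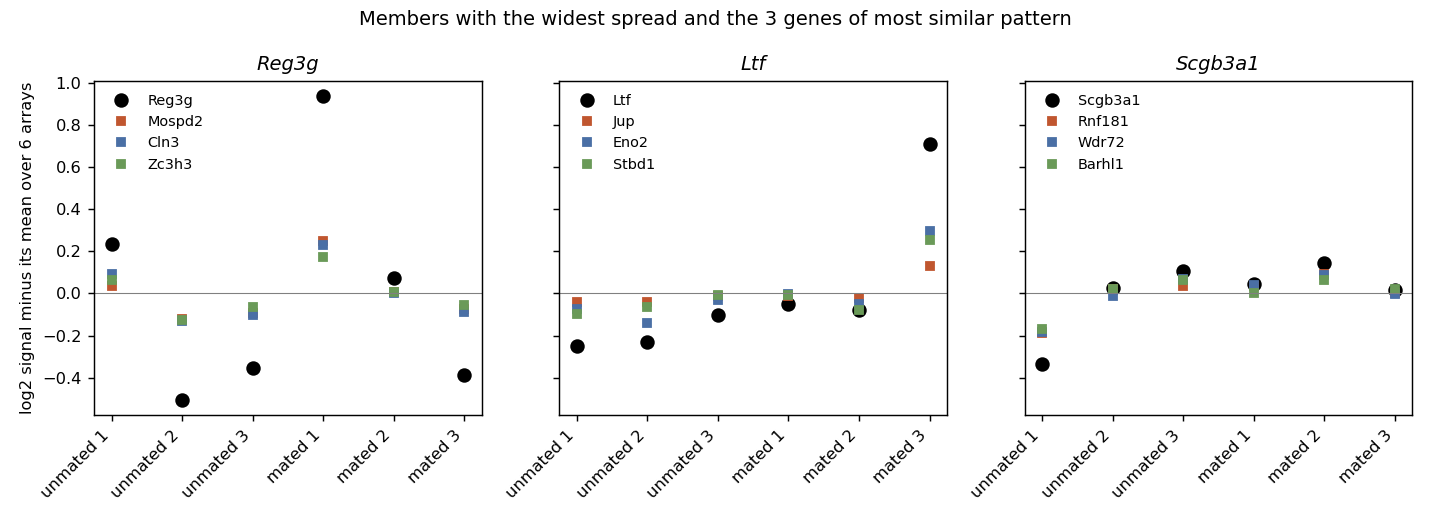
Log2 signal minus its mean over the 6 arrays (vertical axis) for Reg3g, Ltf and Scgb3a1 (black circles) and the 3 genes of highest Pearson correlation with each (coloured squares), 1 position per array. Reg3g is highest on mated 1, Ltf is highest on mated 3 and Scgb3a1 is lowest on unmated 1, while Reg3g also varies over the other arrays. The similar genes have that extreme on the same array, with narrower ranges.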

How the data were processed

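Total RNA (0.3 µg per rat) was labelled with biotin and hybridised to Affymetrix whole-transcript arrays, per the labels' protocols. The authors deposited 1 log2 signal per probe set and array; the submitters' processing notes name RMA and Affymetrix Expression Console, without versions. The log2 scale was taken from the values. RMA equalises the arrays and compresses dim signals. The genome build of the probe sets was not given in the sources used here.

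Of 29214 probe sets, 15310 carried 1 symbol, 323 several and 13581 no symbol; the brightest per gene was kept. Of the 15310, 15279 had an Entrez identifier in the RefSeq table (GRCr8). Groups, 3 arrays each, were compared with limma 3.58.1 in R 4.3.3 (lmFit, eBayes) over 14506 genes, two-sided, with Benjamini-Hochberg adjustment; the code was tested on simulated data. Intervals are those of the fit, before adjustment, and precision is limited by the number of arrays. The labels call the replicates biological.

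Members and lists were chosen with earlier results of these data known. Of 205 listed genes in the 11 related lists 154 were measured, and members were left out of every list; the others are not analysed here. Named were all members, each list's gene of smallest p, for cell type lists the brightest gene, and the 3 most correlated genes of the 3 most variable members. Names of LOC, RGD, MGC or AABR type were passed over. Fcnb, Csf3r, Cxcr1, S100a9 and Chi3l1 were named after their values were seen, as were the other genes said to be chosen so.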

Additional observations from a re-analysis of the deposited data

How the results depend on the processing

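With 3 arrays per group, 15 alternatives were run, covering the fit, the scaling, filters on dim genes, the probe set rule and the removal of each array; the effects of scaling and of left-out arrays on the lists, and the lipocalin list without Pip, were added after seeing the data. No gene passed the adjusted threshold by limma under any of them. An unadjusted p under 0.05 was found for 663 genes, 1207 with array weights, 262 without the dimmest 50% of the genes (7253 tested), and 432 (without unmated replicate 2) to 1403 (without mated replicate 1) when 1 array was left out. Between 7 and 8 members were higher in mated rats when 1 array was left out. Of the members, only Lcn2 changed sign, to -0.068 when unmated replicate 2 was left out and -0.033 and -0.038 when mated replicates 2 and 3 were left out in turn, against 0.14 when mated replicate 1 was; the cause was not tested. With array weights Reg3g differed by 0.18, Scgb1a1 by 0.044 and Lcn2 by 0.10. Without the dimmest 25% of the genes 4 members were not tested, and without the dimmest 50% 7 were not. The labels describe no pairing of the animals by replicate number. Deviations of same-numbered arrays correlated at 0.020, -0.043 and 0.075, and 2 of the 3 unmated arrays correlated best with the mated array of their own number. With 3 arrays per group this cannot show whether animals of the same number were handled together. With the replicate number as a block 0 genes passed and 672 had an unadjusted p under 0.05, and no member passed the adjusted threshold. Before adjustment 4 members were under 0.05 with the block against 2 without it: the unadjusted p of Reg3g was 0.030 against 0.23 and that of Ltf 0.033 against 0.084, by limma, with an adjusted p of 0.988 for both.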
